A study of Mus musculus with 8 samples.

Results

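Stress-inducible, small and mitochondrial heat shock genes were followed through the lung cells of mice that breathed cigarette smoke (CS) or room air (RA). The 10 genes are Hspb1, Cryab, Hspa1a, Hspa1b, Dnajb1, Dnaja1, Hsph1, Bag3, Hspd1 and Hspe1, out of 33,027 genes in the deposited matrix. They were selected by name, with the CS and RA values of these same libraries already known, so their levels and differences are given as a description and carry no test of their own. Within that limit, the group did not move as one. Hspb1 was lower in CS mice in all 14 cell types in which 10% or more of the cells of each group held it, with level ratios (CS over RA) of 0.249 and 0.283 in the 2 types of capillary endothelium. Hspd1 and Hspe1 differed most in ciliated cells, Dnaja1 differed in capillary, AT1 and ciliated cells, and Hspa1a and Hspa1b were high in some mice and low in others of both groups.

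Heat shock proteins are chaperones, which keep other proteins folded or hand them on for refolding or breakdown. When unfolded proteins build up, the transcription factor HSF1 forms trimers, binds heat shock elements near the start of these genes and switches them on within minutes. The members fall into 3 roles. Hspa1a and Hspa1b encode the stress-inducible cytosolic HSP70, Dnajb1 and Dnaja1 encode HSP40 co-chaperones that deliver clients to it, Hsph1 encodes HSP110, which exchanges its nucleotide, and Bag3 encodes a co-chaperone that links HSP70 to small heat shock proteins and to autophagy. Hspb1 (HSP25 in mice) and Cryab (alpha-B-crystallin) are small heat shock proteins that hold unfolded clients without using ATP. Hspd1 (HSP60) and Hspe1 (HSP10) form the folding chamber of the mitochondrial matrix.

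The study asked which lung cells and which of their genes change in chronic obstructive pulmonary disease, and used smoke exposure of mice beside human tissue. Single-cell RNA from the right lungs of 8 Sftpc-CreERT2-mTmG mice on a C57BL/6 background was sequenced, with 4 mice (C2, C5, D2, D5) exposed to the smoke of research cigarettes for 10 months and 4 mice (F1, F3, M1, M3) kept in room air. All 8 carried the same alleles and received tamoxifen on 4 days at 8 to 10 weeks of age, before exposure began, so the RA mice share the reporter and the drug, and the Cre is driven by the Sftpc promoter, which is active in AT2 cells. Lungs were taken 1 day after the last exposure. They were digested with enzymes at 37 °C for 45 min, and the suspension was mixed to 10% CD45+ and 90% CD45- cells, so immune cells are under-represented by design. The warm digestion applies to both groups and is itself a stress to which heat shock and immediate-early genes are known to respond.

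Of 41,106 deposited cells, 40,074 remained without multiplets and cell cycle cells, 20,330 from CS and 19,744 from RA mice, and 22 of the 32 cell types had at least 20 cells in at least 3 mice of each group. Median transcripts per cell ran from 4,557 to 6,316 in CS mice and from 4,254 to 6,473 in RA mice. Each cell was scaled to 10,000 transcripts; a level is the average of a gene over a mouse's cells of a given type, and n counts mice. Each of 18 defining markers peaked in the cell type it was listed for, among them Gpihbp1 in general capillary (gCap) cells and Car4 in aerocytes, the second capillary type; the labels Mast, peribronchial fibroblast, goblet, and classical and non-classical monocyte were not checked with a marker. Each of 4 sequencing lanes held 1 CS and 1 RA mouse. Both CS mice labelled male held Xist and both labelled female held the Y-linked Ddx3y, whereas the RA mice matched their labels, and 197 of 40,909 cell barcodes occurred in more than 1 library.

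The promoters show how the HSF1 element differs among members. A heat shock element is made of inverted GAA units, and the searched letters were GAANNTTC and TTCNNGAA, which read the same on both strands, in the RefSeq window of 250 bases before and 50 after each start (GRCm38.p6). These occurred in 7.86% and 8.52% of 32,851 promoter windows, either of them in 15.1%, and 3 alternating units in a row in 0.603%. Of the 10 members, 9 had an entry, all but Cryab, and 8 of these 9 held GAANNTTC or TTCNNGAA. Members are counted by gene over 14 windows, whereas the shares are by window, so a member with several windows matches more easily. There were 3 members with 3 or more units in a row, Hspd1, Hspe1 and Hsph1. The windows of Hspd1 and Hspe1 overlap. Their element, 2 overlapping runs of 3 units, is the same stretch of DNA, read from opposite strands. The windows are shown for the gene with the widest difference between CS and RA mice (Hspb1) and the 2 near-identical genes of HSP70. Below them stand the elements of Hspe1 and Hsph1. The heat shock element letters are in capitals. A match of letters does not show that HSF1 binds there.
Hspb1: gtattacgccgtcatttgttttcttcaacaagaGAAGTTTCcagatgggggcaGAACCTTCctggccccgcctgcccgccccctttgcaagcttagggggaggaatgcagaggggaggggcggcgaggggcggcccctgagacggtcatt
Hspa1a: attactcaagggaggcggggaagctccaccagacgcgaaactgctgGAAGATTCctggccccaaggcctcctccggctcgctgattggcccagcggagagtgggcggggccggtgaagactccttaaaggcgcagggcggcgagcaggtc
Hspa1b: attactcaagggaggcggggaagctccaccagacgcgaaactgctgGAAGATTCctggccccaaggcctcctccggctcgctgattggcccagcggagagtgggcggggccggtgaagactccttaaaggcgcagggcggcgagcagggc
Hspe1: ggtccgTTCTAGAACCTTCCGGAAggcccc
Hsph1: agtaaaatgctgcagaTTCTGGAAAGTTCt

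The Hspb1 window is the 150 bases before the start, chr5:135887769-135887918 on the plus strand, and holds GAANNTTC 2 times, from positions -117 and -97. The Hspa1a window (chr17:34972157-34972306) and the Hspa1b window (chr17:34959239-34959388), both on the minus strand, are identical at 149 of 150 positions and hold it once, from position -104. None of these 3 windows overlaps an annotated exon. The 30 bases of Hspe1 (chr1:55088053-55088082, plus strand) hold 18 bases of overlapping units, and they lie in an exon of Hspd1, which is transcribed in the other direction. The Hsph1 element (chr5:149636287-149636316, minus strand) begins at base 37 of the transcript and lies in its first exon. Dnaja1 held the letters in 1 of its 3 windows and Bag3 in its only window, and neither Dnajb1 window held them.

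Hspb1 lies on chromosome 5 (135887919 to 135889563), Cryab on 9 (50751325 to 50756636), Dnaja1 on 4 (40722150 to 40737149), Dnajb1 on 8 (83608193 to 83612653), Hsph1 on 5 (149614287 to 149636376) and Bag3 on 7 (128523616 to 128546981), in GRCm38 with GENCODE M21 genes, all protein coding. Hspa1b (34956436 to 34959238) and Hspa1a (34969190 to 34972156) lie 9,951 bases apart on chromosome 17, on the same strand. Hspd1 (55077835 to 55088243) and Hspe1 (55088132 to 55091307) share 112 bases on chromosome 1, on opposite strands. Of all 98-base stretches of the Hspa1a transcript, the read length of the study, 47.5% occur unchanged in Hspa1b, but 0 of those in its last 500 bases do. The counts of both genes are uncertain to the extent that reads came from the shared part.

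Levels of the members were set by cell type to different degrees. The plot of levels by cell type gives each member in its own column, and levels are compared across cell types for 1 gene at a time. Cryab was the most restricted. It reached 15.6 ± 4.07 transcripts per 10,000 in AT1 cells (SD, n = 8 mice), the flat cells that carry gas exchange, against 5.59 ± 1.39 in mesothelium (SD, n = 7) and 2.18 ± 0.752 in alveolar fibroblasts (SD, n = 8). AT1 cells and mesothelium each differed from the next type by more than the spread between mice. Hspb1 fell into 2 sets of types. From mesothelium (15.6 ± 7.48, SD, n = 7), aerocytes (12.5 ± 9.49, SD, n = 8) and alveolar fibroblasts (12.4 ± 5.69, SD, n = 8) down to club cells (2.12 ± 1.56, SD, n = 8), no 2 neighbours in the order differed beyond their spread. Below club cells came a gap to the leukocyte types, of which the highest, B cells, held 0.219 ± 0.162 (SD, n = 8).

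**Figure D1:**
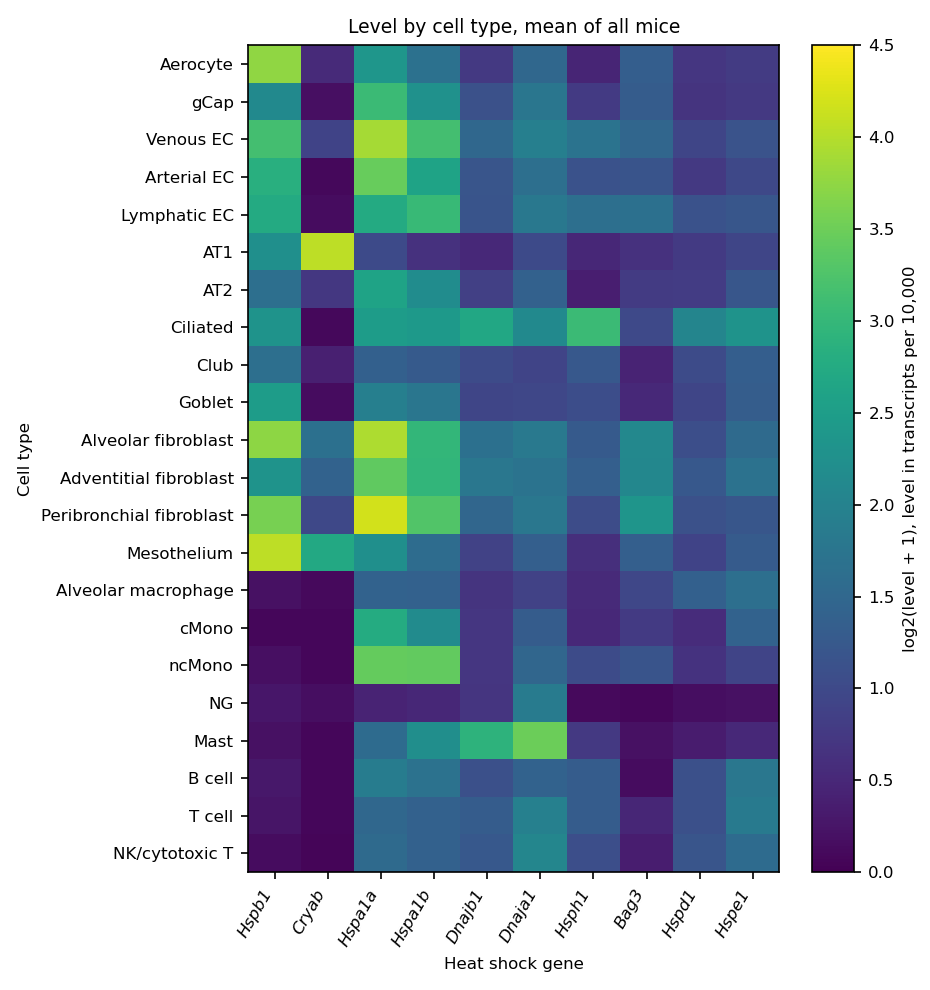
Level of the 10 heat shock genes (columns) in 22 cell types (rows), as log2 of the mean level over all mice plus 1, with the level in transcripts per 10,000. Cryab is bright in AT1 cells, Hspb1 is dark in leukocytes, and ciliated cells are the brightest row for Hsph1, Hspd1 and Hspe1.

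Ciliated airway cells held the highest levels of Hsph1 (7.40 ± 3.45, SD, n = 8), Hspd1 (3.15 ± 1.57, SD, n = 8) and Hspe1 (3.97 ± 2.48, SD, n = 8). Only the Hsph1 level stood beyond its spread from the next type, venous endothelium at 2.26 ± 1.28 (SD, n = 8). Cells labelled Mast held the highest Dnaja1 (10.3 ± 2.43, SD, n = 7), beyond the spread from ciliated cells at 3.38 ± 1.63 (SD, n = 8), and the highest Dnajb1 (6.52 ± 2.43, SD, n = 7), which did not differ beyond its spread from that of ciliated cells (5.49 ± 3.38, SD, n = 8). Bag3 was highest in the 3 fibroblast types, at 4.08 ± 0.781 in peribronchial (SD, n = 6), 3.31 ± 0.698 in alveolar (SD, n = 8) and 3.25 ± 0.354 in adventitial fibroblasts (SD, n = 8). These 3 did not differ from their neighbours beyond the spread, and the step below adventitial fibroblasts did.

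For the HSP70 genes, hardly any step between neighbouring types was beyond the spread between mice. Hspa1a was highest in peribronchial fibroblasts (17.3 ± 8.999, SD, n = 6) and lowest in cells labelled NG (0.373 ± 0.202, SD, n = 8), and only the last of its 21 steps between neighbours was beyond the spread between mice. Hspa1b was highest in non-classical monocytes (9.66 ± 9.25, SD, n = 7), and 0 of its 21 steps was. Of the 10 types with too few cells to compare, smooth muscle held 22.03 Hspb1 transcripts per 10,000 over its 149 cells, and the cells labelled M held 21.7 Hspa1a over 101 cells, pooled over mice and without an error.

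The genes whose levels followed a member most closely over the 22 cell types, among 14,931 genes, were sought for 4 members by the Pearson correlation of log2(level + 1), a description over types that share libraries. Hspa1a was closest to Hspa1b (r = 0.921), Gm48565 (0.857) and 4732471J01Rik (0.843). Hspd1 was closest to Ptges3 (r = 0.910), Ebpl (0.897) and its partner Hspe1 (0.889). Cryab was closest to Pef1 (r = 0.948), AC123853.1 (0.937) and Enox1 (0.937). Hspb1 was closest to Hsp25-ps1 (r = 0.964), Ttc23 (0.946) and Nfib (0.932). Hsp25-ps1 is a pseudogene copy of Hspb1, and in gCap cells of RA mice it held 0.256 transcripts per 10,000, 4.70% of the Hspb1 level, so part of the reads may be shared between them.

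The comparison of CS with RA mice asked, for each member in each cell type, whether smoke-exposed mice differed from controls. It was fitted with limma over every gene detected in 10% or more of the cells of one of the groups, and a gene is called where the Benjamini-Hochberg adjusted p is under 0.05. Of 220 pairs of member and cell type, 194 passed the filter and 26 did not; these 26 included Cryab in 12 types, Hspb1 in 6 leukocyte types and 8 members in cells labelled NG. A gene present in 1 group alone could pass, and 191 of the 194 pairs would have passed in each group separately. The other 3 passed through the RA mice alone: Hspb1 in alveolar macrophages and non-classical monocytes, and Hspd1 in cells labelled Mast. The log2 difference was below 0 in 142 of the 194 pairs, with a median of -0.13, where over all genes and types 45.8% of differences were below 0 and the median was 0.01. In CS mice 13 pairs were called lower, where 0.518% of all 172,262 tests were, and none was called higher, where 0.712% were. No gene at all was called in AT2 cells, lymphatic endothelium, peribronchial fibroblasts, B cells, T cells or NK and cytotoxic T cells. The same held in both monocyte types and in cells labelled Mast or NG. A missing call in these types is therefore not particular to a member or pathway gene. At an unadjusted limma p under 0.05, 47 pairs were lower, where 6.3% of all tests were, and 2 were higher, where 8.92% were. The CS values lay wholly below the RA values in 19 pairs, where this held for 4.67% of all tests, and wholly above in 0 pairs, where it held for 6.01%. Of the 19 pairs, 16 had 4 mice in each group, where 4.46% of tests did so. The other 3, Hspb1 in peribronchial fibroblasts and Cryab and Hspd1 in mesothelium, had fewer mice and separate more easily. These counts describe genes that were selected on the same contrast, and nothing is read from the distance to the background.

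**Figure D2:**
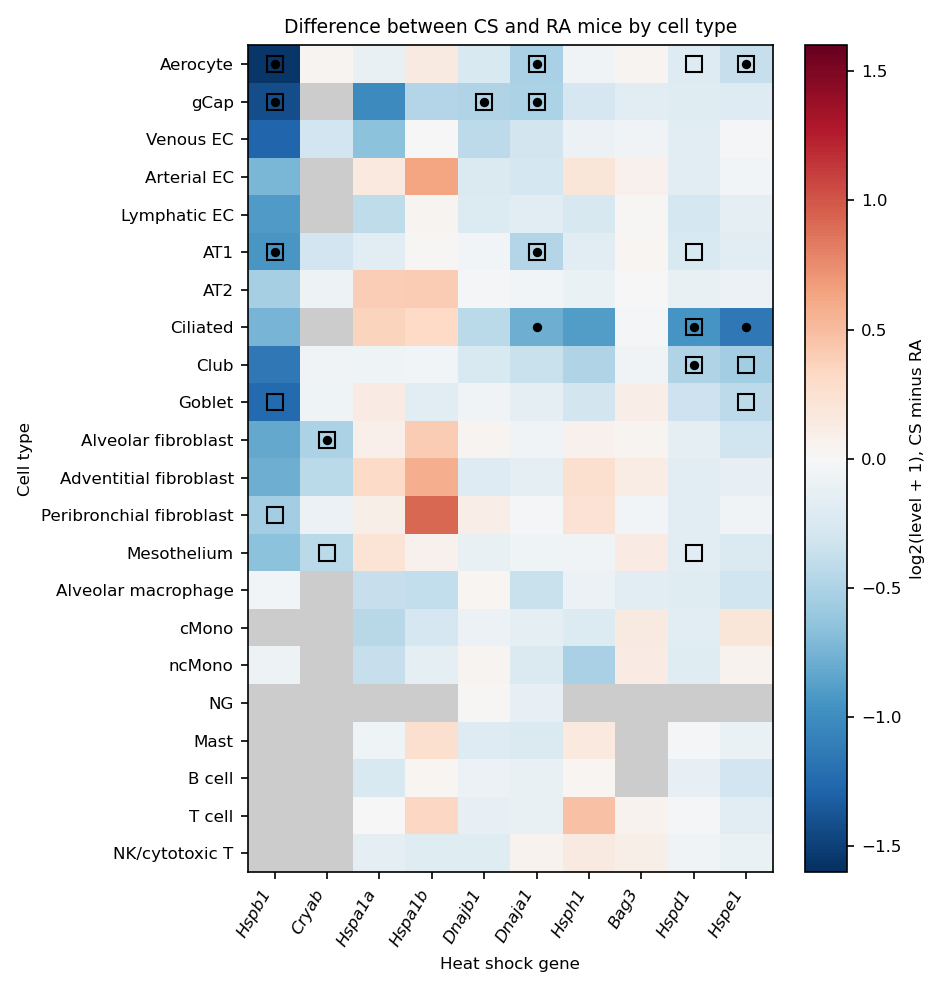
Difference in log2(level + 1), CS minus RA, for the 10 members (columns) in 22 cell types (rows), with grey for pairs that were not tested. Filled circles mark the 13 pairs called lower and open squares the 19 pairs without overlap between groups. The tested rows of the Hspb1 column are below 0, near 0 in alveolar macrophages and non-classical monocytes, and the ciliated row is darkest at Hspe1 (-1.15).

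By role, the 2 small heat shock genes were lower in 23 of the 24 pairs that passed in each group and the 2 mitochondrial genes in 39 of 41, with 4 pairs called lower in each set. The 6 inducible cytosolic genes were lower in 77 of 126 pairs, with 5 called. Over all genes and types 45.8% of differences were below 0, and 0.518% of tests were called lower. The median log2 difference was -0.60 for the small heat shock genes, -0.18 for the mitochondrial genes and -0.06 for the inducible genes.

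Hspb1 gave the widest differences. In gCap cells it held 0.766, 2.34, 1.22 and 1.12 transcripts per 10,000 in CS mice C2, C5, D2 and D5, and 7.84, 2.56, 6.15 and 5.29 in RA mice F1, F3, M1 and M3. The groups did not overlap, although RA mouse F3 lay close to CS mouse C5. The means were 1.36 ± 0.683 (SD, n = 4) and 5.46 ± 2.21 (SD, n = 4), a ratio of 0.249, and the log2 difference was -1.42 (standard error 0.271). The call was lost without C2 (-1.29), D2 (-1.40) or D5 (-1.38). It was also lost, at the same difference, when the sequencing lane, which pairs a CS with an RA mouse, was fitted as a block. In gCap cells 3 of the 9 members tested were called lower, Hspb1, Dnaja1 and Dnajb1, where 3.97% of all genes were, and none of these 3 calls stood with the lane as a block.

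In aerocytes, Hspb1 held 5.45, 5.24, 6.39 and 5.08 in CS mice C2, C5, D2 and D5, and 30.2, 11.2, 13.3 and 23.4 in RA mice F1, F3, M1 and M3. The CS mice lay close together and the RA mice were all higher and wide apart. The log2 difference was -1.55 (standard error 0.252), the largest of the 194, with a ratio of means of 0.283. The call was lost without C2 (-1.55), C5 (-1.53), D5 (-1.52) or M3 (-1.43). In these cells 3 of 10 members were called lower (Hspb1, Dnaja1 and Hspe1), against 0.989% of all genes. In AT1 cells, Hspb1 held 1.67, 2.25, 2.32 and 2.55 in CS mice C2, C5, D2 and D5, against 6.65, 3.06, 5.34 and 5.81 in RA mice F1, F3, M1 and M3. Again the groups did not overlap, and the log2 difference was -0.93 (standard error 0.158). There 2 of 10 members were called lower (Hspb1 and Dnaja1), against 0.992% of all genes, and the Hspb1 call stayed with any 1 mouse left out.

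**Figure D3:**
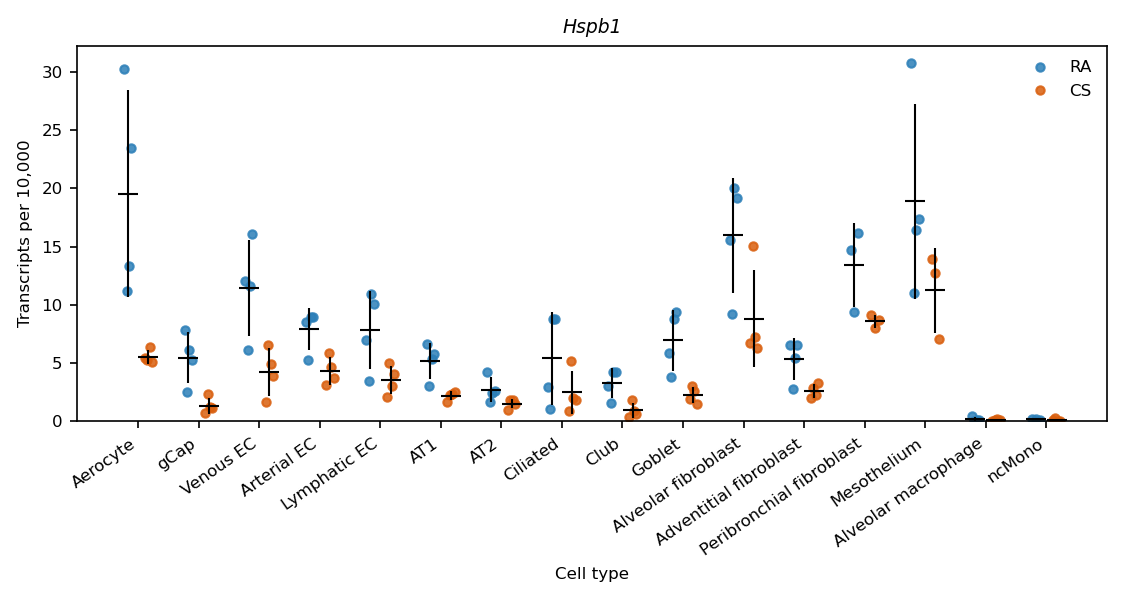
Hspb1 in transcripts per 10,000 (vertical axis) in the 16 cell types in which it was tested, with 1 point per mouse, RA in blue and CS in orange, and bars at the mean ± SD. In aerocytes the CS points lie between 5.08 and 6.39 and the RA points between 11.2 and 30.2.

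The same direction held where no call was made. In AT2 cells, Hspb1 held 1.003, 1.81, 1.80 and 1.53 in CS mice C2, C5, D2 and D5 and 4.25, 1.69, 2.40 and 2.59 in RA mice F1, F3, M1 and M3, so that the groups overlapped through F3. The log2 difference there was -0.53 (standard error 0.174). In goblet cells the CS mice (1.51 to 3.05) lay below the RA mice (3.83 to 9.36), and in peribronchial fibroblasts, with 3 mice in each group, 8.01 to 9.14 lay below 9.37 to 16.2. The smallest difference was in alveolar macrophages, at -0.05, where the level was near 0 in both groups. Over the 14 types that passed in each group the median log2 difference was -0.86. Over all 16 it was -0.80, and without RA mouse F1, the highest in gCap cells, aerocytes, AT1 cells and mesothelium, it was -0.81, with 15 of 16 types below 0. Within lanes, Hspb1 was lower in the smoke-exposed mouse in 53 of 60 comparisons. These were 13 of 13 in lane 1, 12 of 16 in lane 2, 14 of 16 in lane 3 and 14 of 15 in lane 4. The comparisons include alveolar macrophages and non-classical monocytes, which passed the filter through the RA mice alone. They are cell types of the same mice and not replicates, and no share over all genes stands beside them. The pseudogene Hsp25-ps1 held 0.0436 in gCap cells of CS mice against 0.256 in RA mice.

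Other measures were also compared between the groups in these cells. The level of 13 immediate-early genes, which are known to respond to stress, tissue digestion included, was summed. It ran from 61.2 to 91.6 in gCap cells of CS mice and from 107 to 167 in RA mice, without overlap. By themselves 8 of the 13 genes did not overlap, where 11% of all genes in gCap cells lay wholly lower in CS mice. In aerocytes the sums overlapped (43.8 to 63.2 against 46.6 to 107), and 0 of the 13 genes lay wholly lower, where 7.10% of all genes did. They overlapped in AT1 cells too (33.8 to 43.6 against 40.9 to 53.9), but 5 of the 13 genes lay wholly lower there, where 5.17% of all genes did. Over all 22 types the sums were apart in 3, namely gCap cells, venous endothelium and T cells, and in each the CS mice were lower. In AT1 cells the median mitochondrial share of a cell's transcripts ran from 1.75% to 3.26% in CS mice and from 1.33% to 1.71% in RA mice, and the sum of 3 AT1 markers from 228 to 270 and from 271 to 313. The leukocyte gene Ptprc in aerocytes ran from 0.0296 to 0.0483 in CS and from 0.00877 to 0.0177 in RA mice. In gCap cells the sum of 2 adventitial fibroblast markers ran from 0.0476 to 0.0622 in CS and from 0.0726 to 0.189 in RA mice. Every other marker list compared in AT1 cells, aerocytes and gCap cells overlapped between the groups. In ciliated and club cells all marker lists overlapped. The part of these measures in the differences of members was not tested. Median depth per cell overlapped between groups in all 22 types.

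Cryab, the other small heat shock gene, differed less and in fewer types. It was tested in 10 types, was lower in 9 of them, and had a median log2 difference of -0.20, which was -0.11 without F1 and -0.13 without F3. In alveolar fibroblasts it held 1.38, 1.82, 1.71 and 1.54 in CS mice C2, C5, D2 and D5 and 3.69, 2.59, 2.50 and 2.21 in RA mice F1, F3, M1 and M3. The groups did not overlap, F1 stood highest, and the log2 difference was -0.51 (standard error 0.115), the only call among the 10 members in these cells, against 0.672% of all genes. That call was lost with the lane as a block and with any 1 mouse left out, and the log2 difference was -0.39 without F1. Arterial markers ran from 0.958 to 1.26 in these fibroblasts of CS mice and from 0.470 to 0.768 in RA mice. Mesothelial markers ran from 0.0168 to 0.0367 in CS and from 0.0425 to 0.106 in RA mice. Every other marker list overlapped in these fibroblasts, and the part of the markers was not tested. In AT1 cells, where Cryab is most abundant, the CS mice held 12.0 to 15.6 and the RA mice 14.4 to 25.1, with overlap and a log2 difference of -0.30 (standard error 0.162). In mesothelium 3 CS mice (3.97 to 4.89) lay below 4 RA mice (5.57 to 8.22). The mitochondrial share there was also apart, at 2.39% to 2.82% in CS and 1.97% to 2.35% in RA mice, and its part was not tested. In AT2 cells it held 0.686, 0.549, 0.702 and 0.528 in the CS mice C2, C5, D2 and D5, and 0.698, 0.527, 0.690 and 0.927 in the RA mice F1, F3, M1 and M3, fully mixed. In gCap cells it was under the filter, at 0.144, 0.113, 0.137 and 0.0957 in the CS mice and 0.254, 0.148, 0.136 and 0.0967 in the RA mice, which overlapped.

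The mitochondrial pair differed most in ciliated cells. Hspd1 held 1.43, 2.703, 1.68 and 1.57 there in CS mice C2, C5, D2 and D5, and 4.87, 3.13, 5.07 and 4.79 in RA mice F1, F3, M1 and M3. No CS mouse reached the lowest RA mouse, F3, and the log2 difference was -0.95 (standard error 0.150), a ratio of means of 0.413. Hspe1 held 1.37, 3.23, 1.94 and 1.68 in the same CS mice and 7.22, 2.92, 6.81 and 6.56 in the RA mice. Here C5 was above F3, so the groups overlapped, and the log2 difference was -1.15 (standard error 0.238). The Hspe1 call was kept only without C5 or without F3; it was lost without C2 (-1.04), D2 (-1.14), D5 (-1.10), F1 (-1.04), M1 (-1.07) or M3 (-1.08), whereas Hspd1 stayed called with any 1 mouse left out. The immediate-early sum overlapped in ciliated cells through C5 alone (57.4 to 111 against 101 to 145), and 3 of the 13 genes lay wholly lower, where 6.65% of all genes did; their part was not tested. In ciliated cells 3 of 9 members tested were called lower, Hspd1, Hspe1 and Dnaja1, against 1.91% of all genes.

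**Figure D4:**
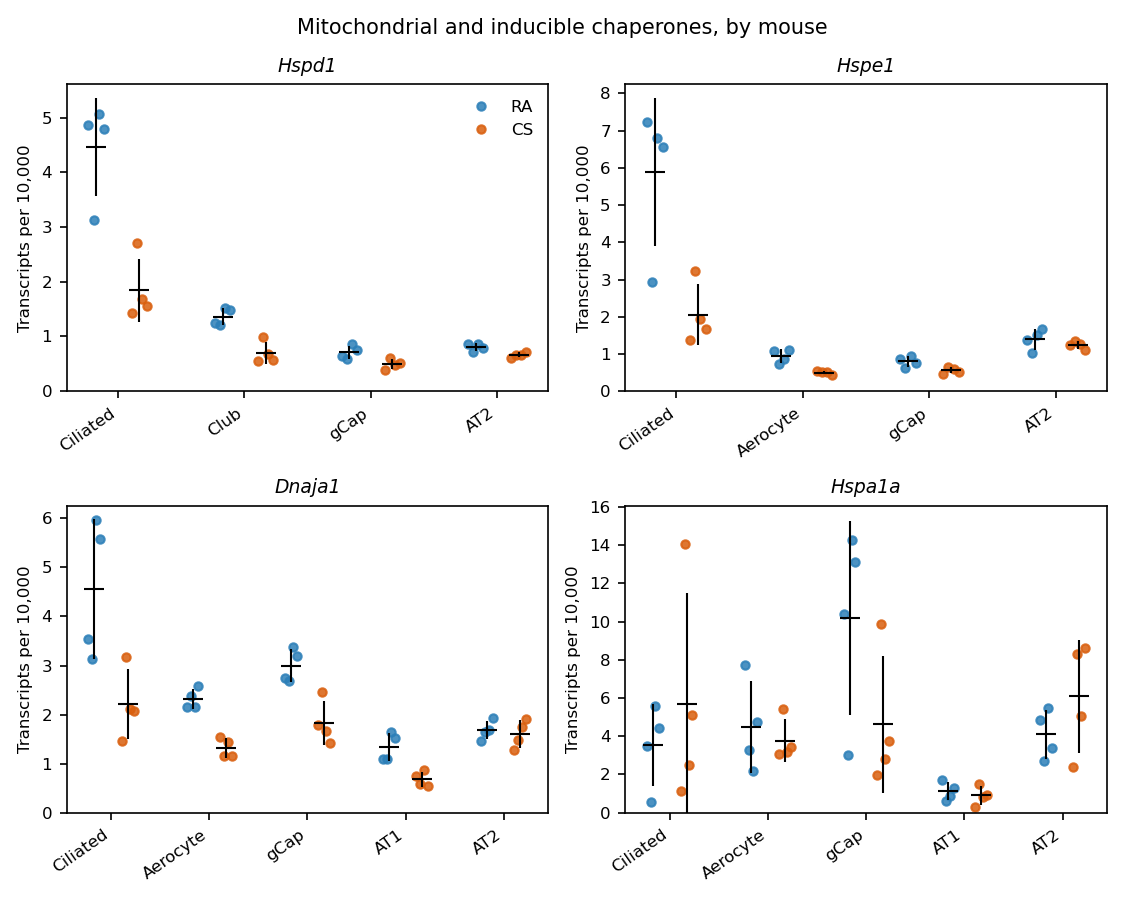
Hspd1, Hspe1, Dnaja1 and Hspa1a in transcripts per 10,000 (vertical axes) by cell type, with 1 point per mouse, RA in blue and CS in orange, and bars at the mean ± SD. Ciliated cells separate the groups for Hspd1 (1.43 to 2.703 against 3.13 to 5.07), whereas the Hspa1a points of the groups overlap in every type shown.

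In club cells, the secretory cells beside them, Hspd1 held 0.560, 0.997, 0.687 and 0.571 in CS mice C2, C5, D2 and D5 and 1.25, 1.21, 1.51 and 1.48 in RA mice F1, F3, M1 and M3. These did not overlap, and the log2 difference of -0.48 (standard error 0.0836) was the only call among 10 members, against 0.121% of all genes; it was kept only without C5, and without another mouse it lay between -0.51 and -0.44. In aerocytes, Hspe1 held 0.532, 0.523, 0.508 and 0.441 in CS mice C2, C5, D2 and D5 and 1.08, 0.723, 0.860 and 1.10 in RA mice F1, F3, M1 and M3, without overlap, with a log2 difference of -0.37 (standard error 0.0638), a call lost without C2 (-0.38), C5 (-0.37), D2 (-0.37), D5 (-0.35) or M3 (-0.33). In gCap cells both groups lay near the level of 1 transcript per 10,000 or below. Hspd1 held 0.384, 0.610, 0.482 and 0.509 there in CS mice C2, C5, D2 and D5 and 0.638, 0.589, 0.858 and 0.753 in RA mice F1, F3, M1 and M3. Hspe1 held 0.465, 0.647, 0.608 and 0.518 against 0.866, 0.622, 0.950 and 0.759. In both, C5 was above F3 and the other mice did not overlap. At such levels the added count of 1 narrows the difference: Hspd1 in gCap cells was -0.19 with it and -0.44 with 0.1 added.

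AT2 cells held Hspd1 at 0.609, 0.654, 0.666 and 0.721 in CS mice C2, C5, D2 and D5 and at 0.864, 0.712, 0.861 and 0.786 in RA mice F1, F3, M1 and M3, which overlapped only through F3. Hspe1 held 1.25, 1.34, 1.27 and 1.09 against 1.37, 1.02, 1.51 and 1.66 there, and overlapped through F3, which was lowest of all 8 mice. Over the types that passed in each group, Hspd1 was lower in 20 of 20, with a median log2 difference of -0.18, and Hspe1 in 19 of 21, with a median of -0.18, which was -0.27 without F3. Within lanes, the smoke-exposed mouse was lower in 65 of 78 comparisons for Hspd1 and in 53 of 78 for Hspe1. In lane 2 this was so in 12 of 21 for Hspd1 and in 7 of 21 for Hspe1. The Hspd1 counts include cells labelled Mast, where it passed the filter through the RA mice alone. Types of the same mice are not replicates, and no share over all genes stands beside these counts.

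Dnaja1 was the inducible gene that differed in most types. In gCap cells it held 1.79, 2.47, 1.66 and 1.42 in CS mice C2, C5, D2 and D5 and 2.74, 2.69, 3.37 and 3.19 in RA mice F1, F3, M1 and M3, a log2 difference of -0.50 (standard error 0.111). In aerocytes it held 1.54, 1.16, 1.43 and 1.15 against 2.15, 2.38, 2.16 and 2.59, in the same order of mice, a log2 difference of -0.52 (standard error 0.0775). In AT1 cells it held 0.741, 0.580, 0.875 and 0.538 against 1.09, 1.08, 1.65 and 1.51, a log2 difference of -0.47 (standard error 0.0898). In all 3 types every CS mouse was below every RA mouse. This held for 11.0% of all genes in gCap cells, 7.10% in aerocytes and 5.17% in AT1 cells. The call was lost in gCap cells without C2 (-0.50), D2 (-0.48), D5 (-0.43) or F3 (-0.54), in aerocytes without C5 (-0.49) or D5 (-0.48), and in AT1 cells without C5 (-0.44). In ciliated cells, where the values were 1.47, 3.18, 2.12 and 2.07 against 3.55, 3.14, 5.96 and 5.59, C5 was above F3 and the log2 difference was -0.78 (standard error 0.190). There the call was lost without C2 (-0.66), D2 (-0.78), D5 (-0.77), M1 (-0.66) or M3 (-0.69). AT2 cells showed no such separation, at 1.28, 1.48, 1.74 and 1.91 against 1.47, 1.65, 1.68 and 1.93 and a log2 difference of -0.05 (standard error 0.0865). Dnaja1 was below 0 in 21 of 22 types, with a median of -0.16, which was -0.27 without F1 and -0.25 without F3.

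Dnajb1, the other HSP40, was called in gCap cells only. It held 0.736, 1.02, 0.808 and 0.653 there in CS mice C2, C5, D2 and D5 and 2.18, 1.205, 1.56 and 1.23 in RA mice F1, F3, M1 and M3, without overlap, with a log2 difference of -0.48 (standard error 0.113). Leaving out F1 gave -0.37, still called, and the call was lost without C2 (-0.47), D2 (-0.49), D5 (-0.44) or F3 (-0.55). In ciliated cells, where it is more abundant, CS mice ran from 1.17 to 9.24 and RA mice from 1.67 to 10.2, with C5 among the highest. In AT2 cells it held 0.633, 0.870, 0.746 and 0.919 in CS mice C2, C5, D2 and D5 and 0.959, 0.757, 0.847 and 0.761 in RA mice F1, F3, M1 and M3, in mixed order.

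Hsph1, which reloads HSP70, was called in no type, and only in ciliated cells with the lane as a block. Its widest difference was in ciliated cells, at -0.90 (standard error 0.254), where CS mice held 2.51 to 7.39 and RA mice 6.5997 to 12.8 and C5 was above F3. It differed the other way in T cells, at 0.47 (standard error 0.200), with 0.908 to 2.44 in CS and 0.410 to 1.44 in RA mice. In gCap cells Hsph1 held 0.218, 1.001, 0.426 and 0.486 in CS mice C2, C5, D2 and D5 and 0.726, 0.411, 1.36 and 0.905 in RA mice F1, F3, M1 and M3, and in AT2 cells 0.142, 0.287, 0.197 and 0.361 against 0.304, 0.272, 0.362 and 0.413. The groups overlapped in both. Bag3 was the member that differed least, with log2 differences between -0.18 in alveolar macrophages and 0.15 in classical monocytes over 19 types, 13 of them above 0. In gCap cells Bag3 held 1.198, 1.55, 1.25 and 1.37 in CS mice C2, C5, D2 and D5 and 1.66, 1.37, 1.95 and 1.59 in RA mice F1, F3, M1 and M3, and in AT2 cells 0.732, 0.734, 0.512 and 0.954 against 0.709, 0.657, 0.661 and 0.834. The first set overlapped slightly and the second was mixed.

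Hspa1a and Hspa1b, the genes that give HSP70 its inducible form, were high and low in mice of both groups. In gCap cells Hspa1a held 1.99, 9.89, 2.82 and 3.75 in CS mice C2, C5, D2 and D5 and 10.4, 2.998, 14.3 and 13.1 in RA mice F1, F3, M1 and M3. CS mouse C5 was near the RA mice and RA mouse F3 near the CS mice, so that a ratio of means of 0.452 came with a log2 difference of -1.01 and a standard error of 0.475. Hspa1b held 1.42, 6.26, 1.62 and 2.38 against 2.97, 0.964, 8.52 and 6.70 in the same cells, with the same 2 exceptions and F1 also low. In AT2 cells the means went the other way. Hspa1a held 2.37, 8.31, 5.08 and 8.62 in CS mice against 4.85, 2.69, 5.46 and 3.40 in RA mice, and Hspa1b 2.44, 6.27, 3.27 and 5.04 against 2.72, 1.63, 4.07 and 3.17, with overlap for both. Neither gene was called in any of 21 types, which include AT2 cells and other types in which no gene at all was called.

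**Figure D5:**
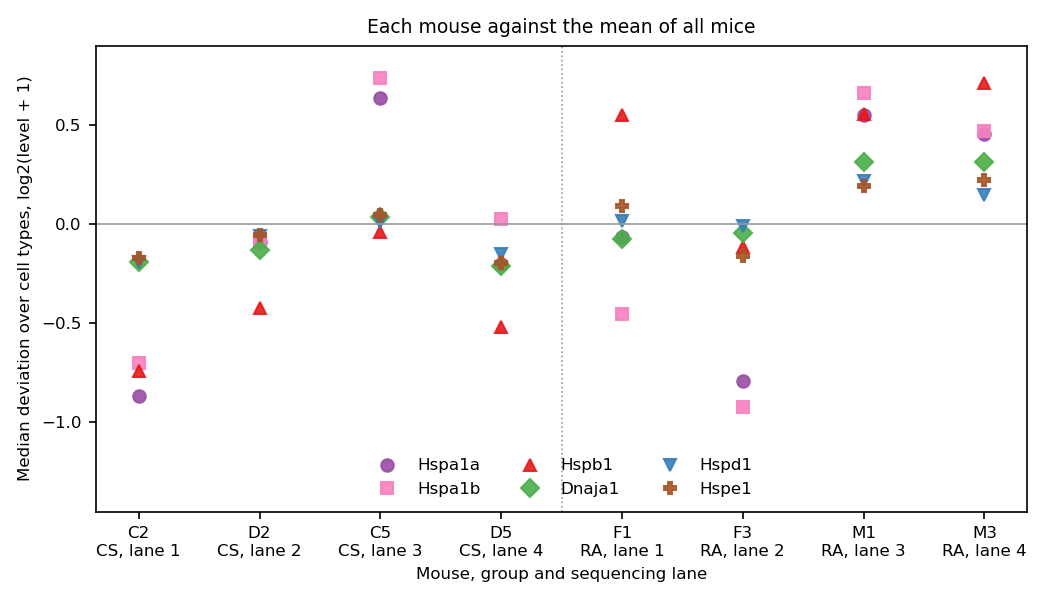
Median over cell types of each mouse's deviation from the mean of all mice (vertical axis, log2(level + 1)), for 6 members and 8 mice, with group and sequencing lane under each mouse. Hspa1a and Hspa1b are high in C5, M1 and M3 and low in C2 and F3, whereas Hspb1 is below 0 in all 4 CS mice and above 0 in 3 of 4 RA mice.

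The deviation of each mouse from the mean of all mice, as a median over cell types, had the same sign for Hspa1a and Hspa1b in 7 of 8 mice. The median deviation of Hspa1a on the log2 scale was 0.64 in CS mouse C5, 0.55 in RA mouse M1 and 0.46 in RA mouse M3, and -0.87 in CS mouse C2 and -0.79 in RA mouse F3. For Hspa1b these were 0.73, 0.66, 0.47, -0.70 and -0.92. Each group thus held both high and low mice. Mice C5 and M1 were sequenced in lane 3, M3 in lane 4, C2 in lane 1 and F3 in lane 2. In lane 2, CS mouse D2 had more Hspa1b than RA mouse F3 in all 21 types, whereas in lane 4 CS mouse D5 had less than RA mouse M3 in 16 of 20. Hspb1 deviated by -0.74, -0.04, -0.42 and -0.52 in C2, C5, D2 and D5 and by 0.55, -0.12, 0.56 and 0.71 in F1, F3, M1 and M3, so C5 and F3 were also the mice of each group nearest to the other for this gene. Mice that shared a lane were alike in some cases and apart in others. In lane 3 the Hspa1a deviation was 0.64 in C5 and 0.55 in M1. In lane 2 the Hspa1b deviation was -0.09 in D2 and -0.92 in F3, and in lane 1 that of Hspa1a was -0.87 in C2 and -0.06 in F1. The part of the lane in these deviations was not tested. The direction of both genes rested on single mice. The median log2 difference of Hspa1a was -0.07 with all mice, -0.30 without C5, -0.29 without F3, -0.13 without F1, -0.03 without M3, 0.13 without M1 and 0.22 without C2. That of Hspa1b was 0.04 with all mice, -0.19 without C5, -0.18 without F3, and between 0.10 and 0.36 without C2, D2, D5, M1 or M3.

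Among single cells, the inducible genes varied together within a mouse to a degree that differed between the 2 cell types examined. Over 3,519 ciliated cells from 8 mice, after each mouse's mean was removed, the Pearson correlation of log2 levels was 0.73 between Hspa1a and Hspa1b, 0.70 between Hspa1b and Dnajb1 and 0.53 between Dnajb1 and Dnaja1. Dnajb1 had r = 0.66 with the immediate-early gene Fos in the same cells. Over 9,988 gCap cells, Hspa1a had r = 0.67 with Hspa1b, 0.34 with Hspb1 and 0.44 with Fos, but Hspa1b had only 0.23 with Dnajb1, and Dnajb1 0.17 with Dnaja1. Bag3 had 0.11 to 0.18 with the other inducible genes in gCap cells and 0.37 to 0.47 in ciliated cells. Median depth per cell ran from 13,475 to 20,340 transcripts in ciliated cells and from 3,024 to 5,226 in gCap cells, and its part in the lower correlations of gCap cells was not tested. These are descriptions over cells that share libraries, and cells are not replicates.

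The other genes of the pathway numbered 39 and hold no member, and 38 of them could be tested in at least 1 type. These genes were also chosen with earlier results of these data known. Their counts are a description, and nothing is read from the distance to the background shares. Over 656 pairs of gene and type, 54 were called lower in CS mice with limma, where 0.518% of all tests were, and 0 higher, where 0.712% were. At an unadjusted p under 0.05, 184 were lower and 5 higher, where 6.3% and 8.92% of all tests were. Among HSF1 and its regulators and partners, 13 of 22 genes were called lower in at least 1 type, where 4.06% of all 15,351 genes tested in any type were. A gene tested in more types has more chances of a call, so that share depends on the types tested. By pairs, 49 of the 438 of these genes were called lower, where 0.518% of all tests were. Hspa8, the constitutive cytosolic HSP70 (HSC70), was lower in CS in 22 of 22 types and fell in 7, most in ciliated cells, where it held 6.74 in CS and 21.4 in RA mice (log2 difference -1.50, standard error 0.198). Hsp90ab1, the constitutive HSP90, fell most in aerocytes, from 20.2 to 7.16 (-1.36, standard error 0.163), and Hsp90aa1, its inducible form, in ciliated cells, from 51.6 to 21.4 (-1.21, standard error 0.160). The HSP90 co-chaperones Stip1 (-0.82), Fkbp4 (-0.67) and Ahsa1 (-0.63) and the calcyclin-binding protein gene Cacybp (-0.76) fell in ciliated cells as well. Hspa4l fell by 0.58 there, and Bag1 by 0.58 in AT1 cells. Hsf1, which is named here for its role and outside the naming rule, was called in 0 of 21 types, with a median difference of -0.02.

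Of 6 other small heat shock genes, 5 could be tested and 1 was called lower, Hspb8, in 2 types, and of 11 mitochondrial chaperones and proteases 2 were, where 4.06% of all genes were called lower in at least 1 type. The 2 were Atf5, a transcription factor of the mitochondrial stress response, by 0.61 in alveolar fibroblasts, and Grpel1, the nucleotide exchange factor of mitochondrial HSP70. Hspb8 and Grpel1 are named after their values were seen. By pairs of gene and type, 2 of 20 small heat shock pairs and 3 of 198 mitochondrial pairs were called lower, where 0.518% of all tests were. No gene of the 3 lists was called higher in CS mice in any type.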

How the data were processed

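Lungs of 8 mice were profiled with 10x Genomics 3' version 3 chemistry. Per the study's methods, reads were aligned with STAR 2.7.3a to GRCm38.p6, molecules were counted, and free RNA was removed. The deposited matrix holds expected counts, that is, UMI counts after this correction, of which 1.28% are whole numbers (within 1e-06), so no count model was used. The authors also deposited the cell types, the total expected count and the percent of mitochondrial transcripts of each cell. The members, gene lists and comparisons were chosen with earlier results of these data known. Each cell was scaled to 10,000 transcripts and averaged per mouse and cell type (at least 20 cells). log2(mean + 1) was compared with limma 3.58.1 (R 4.3.3, eBayes with trend), per cell type with at least 3 mice a group, over genes detected in 10% or more of the cells of one of the groups; adjusted p-values (Benjamini-Hochberg) under 0.05 were called. Tables were made with pandas 2.3.3 under Python 3.11.15. On simulated data based on gCap cells (6,249 genes, 200 changed by 1 on the log2 scale), 94.5% were recovered and 8.70% of calls were false. At 0.5 these were 78.5% and 3.09%. The changed genes were drawn only from those whose mean log2(level + 1) was above 1. Hsph1, Hspd1 and Hspe1 lie below that in gCap cells, so the recovery does not describe them. Per-mouse values were given for every member in gCap and AT2 cells and in the types with calls. Pathway genes were named where called, by the size of the difference. Alternatives changed the pseudocount, gene filter, cell minimum, scaling, covariates and mice. Total counts per mouse ran from 31,094,695 to 52,753,531, which limits genes near 1 transcript per 10,000 most.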

Additional observations from a re-analysis of the deposited data

Results flagged for a closer look

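Of 60 groups of 4 mice behind the values named above, 2 held a mouse whose distance to the nearest of the others took up most of the range of its group (Dixon's criterion), where chance gives about 1 in 20, or 3 of 60. Both were RA mouse F3 in ciliated cells. It held 3.13 Hspd1 transcripts per 10,000, where the other RA mice held 4.79 to 5.07, and 2.92 Hspe1 transcripts, where they held 6.56 to 7.22. In both cases F3 was the RA mouse nearest to the CS mice.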

How the results depend on the processing

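The 13 calls of members lower in CS mice became 0 without a filter on genes, and the 54 calls of pathway genes became 12. With the lane as a block, 34 pathway calls were made, all of them among the 54, and 10 member calls, of which 9 were among the 13 and 1, Hsph1 in ciliated cells, was not; the calls of Hspb1, Dnajb1 and Dnaja1 in gCap cells and of Cryab in alveolar fibroblasts were lost. With 1 mouse left out, members called lower numbered from 3 (without D5) to 15 (without F3), with 4 without C2, 5 without D2 and 7 without M3, members called higher from 0 to 1 (1 without M1), pathway genes called lower from 24 (without D5) to 50 (without F1), with 27 without C2 and 33 without D2, and pathway genes called higher from 0 to 0. Fewer mice enter these fits, and other causes were not tested. Hspb1 in AT1 cells and Hspd1 in ciliated cells stayed called with any mouse left out and were lost only without the gene filter. Cryab in alveolar fibroblasts was lost with each mouse left out. No difference of a called member reversed under any alternative, and the call was kept in 153 such fits and lost in 68. The other settings (pseudocount 0.1, genes in 25% of cells, 50 cells, summed transcripts, median scaling, quantile normalization) moved the number of member calls by less than 1.5 times. All 13 calls were kept under each of these except summed transcripts, where 11 were kept and Dnaja1 in ciliated cells and Hspd1 in club cells were lost. A term for the labelled sex also kept 13, but Xist and Ddx3y go against that label in all 4 CS mice, so it does not account for sex. The lane block is the paired fit, since each lane holds 1 CS and 1 RA mouse; the replicate numbers were given in accession order and pair no mice.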
